A study of Mus musculus with 4 samples.

Results

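The Ifitm genes code for small interferon-induced transmembrane proteins, and 4 of them that lie together on mouse chromosome 7 were examined in blood stem and progenitor cells: Ifitm1, Ifitm2, Ifitm3 and Ifitm6. All probe sets annotated to one of these genes alone were taken, which gave 4 of the 45037 tested probe sets, 1 per gene, and 4 of 18193 measured genes. The cells were LSK cells from mouse femur marrow, which lack lineage markers, carry c-Kit and Sca1 and hold the haematopoietic stem cells and multipotent progenitors. Cells making a c-Myc-eGFP fusion protein were sorted into Hi cells with a high level of it (2 arrays) and Lo cells with a low level of it (2 arrays). All 4 samples were labelled WT B6/129, a wild type label on a mixed background, although the sorted cells made the fusion protein. The labels give neither the ages of the mice nor whether animals were pooled. The labels do not say that replicates came from separate animals, so the p-values measure only the spread between these arrays.

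Ifitm proteins sit in cell membranes and hinder enveloped viruses from fusing with the cell. Ifitm1 protein is found mainly at the cell surface, and Ifitm3 protein mainly in endosomes and lysosomes. The genes are induced by interferons through the receptors, Janus kinases and STAT and IRF factors, and stem cells of several kinds are known to transcribe them without added interferon. Ifitm1 and Ifitm3 are also known from mouse primordial germ cells.

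The promoter windows of the 3 brightly measured members are shown because the genes are neighbours and letters of interferon response elements are unequally spread among them. Each window is a RefSeq sequence of build GRCm38.p6 with 250 bases before 1 annotated start and the bases after it, 300 in all. Capitals mark matches to an interferon-stimulated response element (ISRE), spelled GAAA, then any NN, then GAAA, or to a gamma-activated site (GAS), TTCNNNGAA, both searched on both strands. The windows are chr7:140967826-140968125 on the plus strand for Ifitm1, chr7:140955912-140956211 on the minus strand for Ifitm2 and chr7:141010695-141010994 on the minus strand for Ifitm3.
Ifitm1: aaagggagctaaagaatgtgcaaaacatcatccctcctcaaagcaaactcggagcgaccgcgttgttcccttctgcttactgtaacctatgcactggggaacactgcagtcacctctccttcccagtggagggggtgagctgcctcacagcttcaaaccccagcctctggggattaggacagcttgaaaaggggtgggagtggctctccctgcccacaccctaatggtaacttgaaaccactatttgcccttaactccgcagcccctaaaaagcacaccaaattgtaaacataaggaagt
Ifitm2: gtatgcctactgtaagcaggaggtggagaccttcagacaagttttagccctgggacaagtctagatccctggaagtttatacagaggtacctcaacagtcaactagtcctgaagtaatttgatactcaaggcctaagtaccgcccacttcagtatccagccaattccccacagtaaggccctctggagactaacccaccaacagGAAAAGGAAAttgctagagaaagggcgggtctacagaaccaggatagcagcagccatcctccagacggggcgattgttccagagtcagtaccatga
Ifitm3: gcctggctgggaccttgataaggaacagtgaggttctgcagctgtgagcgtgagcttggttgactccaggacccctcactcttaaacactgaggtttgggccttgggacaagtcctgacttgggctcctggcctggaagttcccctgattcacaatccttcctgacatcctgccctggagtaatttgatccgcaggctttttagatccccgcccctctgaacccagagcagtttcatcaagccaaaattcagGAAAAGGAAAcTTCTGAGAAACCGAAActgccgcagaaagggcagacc
The Ifitm1 window held neither motif. The Ifitm2 window held 1 ISRE match, at bases 205 to 214 counted from 1 at the 5′ end of the window. The Ifitm3 window held 2 such matches, at bases 253 to 262 and 270 to 279, with a GAS match at 264 to 272 that overlaps the second of them. The Ifitm2 match thus lies before the annotated start, and the Ifitm3 matches all lie after theirs. A run of 13 bases, CAGGAAAAGGAAA, stands in both the Ifitm2 and the Ifitm3 window and was the longest run these windows share. The Ifitm6 window, chr7:141016843-141017142 on the minus strand, held TTCCTTGAA as a GAS match and no ISRE match. CACGTG, the E-box that Myc and Max bind, was in none of the 4 windows.

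Of 32851 promoter windows of this length, 3.44% held an ISRE match, 8.3% a GAS match and 7.15% held CACGTG. Of 43 windows of interferon-stimulated genes, 18 held an ISRE match (41.9%) and 12 a GAS match (27.9%). A match is a description of letters, not a bound site.

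Ifitm1, the member whose groups stood furthest apart relative to their spread, had less signal in Hi cells. Its log2 intensity was 12.78 and 12.69 on the Hi arrays, against 13.33 and 13.32 on the Lo arrays. Both Hi arrays lay below both Lo arrays, and the gap between the groups exceeded the spread inside either. In linear terms the Hi arrays read 7042 and 6603, against 10306 and 10260 for the Lo arrays. The Hi mean was 12.74 ± 0.07, against a Lo mean of 13.33 ± 0.0045 (SD over 2 arrays), a difference of -0.59 ± 0.13 (SE) on the log2 scale and 1.51 times less signal in Hi. The 95% interval of the difference in the limma fit ran from -0.96 to -0.22. The unadjusted p was 0.0113 in that fit and the Benjamini-Hochberg adjusted p over all probe sets was 0.158, so Ifitm1 did not pass 0.05.

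Ifitm3 had values in the same direction with a smaller gap. Its log2 intensity was 13.13 and 13.13 on the Hi arrays, against 13.32 and 13.46 on the Lo arrays. Both Hi arrays again lay below both Lo arrays, but the Lo arrays were further apart from each other than for Ifitm1. The Hi mean was 13.13 ± 0.0025, against a Lo mean of 13.39 ± 0.10 (SD over 2 arrays), and the difference was -0.26 ± 0.14 (SE). Its 95% interval ran from -0.64 to 0.13, with a limma adjusted p of 0.422.

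Ifitm2, which lies next to Ifitm1, stood within a narrow range on the 4 arrays. Its log2 intensity was 12.61 and 12.61 in Hi, against 12.57 and 12.60 in Lo. Both Hi arrays lay just above both Lo arrays, by less than 0.05 log2 units. The difference was 0.03 ± 0.13 (SE) and its 95% interval, from -0.33 to 0.39, bounds what this fit can show. The fit draws each SE towards the spread of all probe sets. For Ifitm2 the SE was 0.015 in the ordinary linear model and 0.063 with a variance trend on intensity. The limma adjusted p of Ifitm2 was 0.935, and the sign of its difference turned with cyclic loess normalization, to -0.03.

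Ifitm6 varied more between arrays of the same group than between the group means. Its log2 intensity was 8.35 and 7.69 in Hi, against 8.70 and 7.27 in Lo. The Lo arrays held both the highest and the lowest value, so the groups overlapped. The signal on Lo replicate 1 was 2.70 times that on Lo replicate 2, and on Hi replicate 1 it was 1.58 times that on Hi replicate 2. The Hi mean was 8.02 ± 0.47, against a Lo mean of 7.98 ± 1.01 (SD over 2 arrays), with a difference of 0.03 ± 0.57 (SE) and a 95% interval from -1.56 to 1.63. Its limma adjusted p was 0.986. The difference turned to -0.30 when Hi replicate 1 was dropped and to -0.68 when Lo replicate 2 was, and it stood at 0.75 with Lo replicate 1 dropped.

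**Figure D1:**
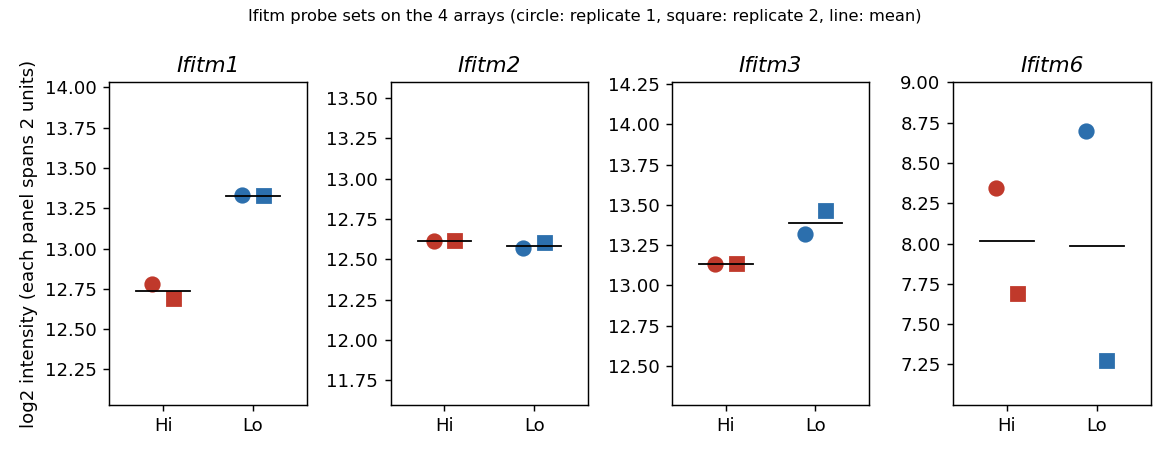
Log2 intensity (vertical axis, 2 units in each panel) of the 4 Ifitm probe sets for Hi (red) and Lo (blue), circles for replicate 1, squares for replicate 2 and lines for the group means. Ifitm1 has Hi points at 12.78 and 12.69, below Lo points at 13.33 and 13.32, and the Ifitm6 points of each group lie far apart.

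At an adjusted p of 0.05 in limma, 0 of the 4 members passed in either direction, and 0 of 45037 probe sets did (0% each way), where 4075 with the higher and 4015 with the lower value in Hi had an unadjusted p under 0.05. An ordinary linear model called 0 higher and 1 lower, and refits over genes called 252 higher and 276 lower (gene means) or 190 higher and 214 lower (brightest probe sets). At an unadjusted p under 0.05, 1 of the 4 members had a lower value in Hi, where 8.91% of all probe sets did, and 0 had a higher one, where 9.05% did. Both Hi arrays lay below both Lo arrays for 2 of the 4 members and 22% of all probe sets, and above them for 1 member and 29.3% of all probe sets. Ifitm1, Ifitm2 and Ifitm3 stood at 12.57 to 13.46, not far under the highest log2 intensity on the arrays, 14.37 to 14.42. Microarray signals are known to flatten towards saturation, and its part in these differences was not tested. The genes are similar in sequence, and whether their probes share targets was not tested.

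**Figure D2:**
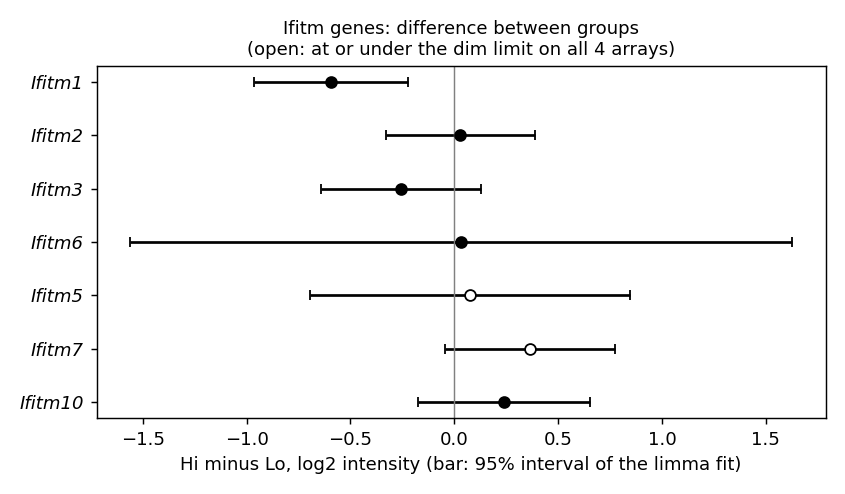
Difference of Hi minus Lo in log2 intensity (horizontal axis) for 7 Ifitm genes, with points for the fitted value and bars for the 95% interval of the limma fit. The interval of Ifitm1, from -0.96 to -0.22, lies wholly below 0; open points mark genes too dim to measure on any array.

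The ratio of 2 members on the same array is free of any scaling of that array as a whole. The log2 ratio of Ifitm1 to Ifitm2 was 0.17 and 0.08 in Hi, against 0.76 and 0.73 in Lo. The groups did not overlap, and the ratio differed by -0.62 between them. The log2 ratio of Ifitm1 to Ifitm3 was -0.35 and -0.44 in Hi, against 0.01 and -0.14 in Lo, a difference of -0.34. Ifitm2 to Ifitm3 stood at -0.52 and -0.52 in Hi and at -0.75 and -0.86 in Lo, a difference of 0.29. Each of these 3 ratios had an exact two-sided permutation p of 0.333, the smallest that 2 arrays against 2 allow, and an adjusted p of 0.667 over the 6 pairs. The 3 ratios with Ifitm6 overlapped between the groups.

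By root mean square difference of the centred profiles over the 4 arrays, Ifitm1 was nearer to Ifitm3 (0.18) than to Ifitm2 (0.31) or Ifitm6 (0.63). The closest members were Ifitm2 and Ifitm3, at 0.15, so by this measure Ifitm3 lay nearer to Ifitm2 than to Ifitm1. The measure takes in the size of a difference as well as its direction. By direction, Ifitm3 (-0.26) matched Ifitm1 (-0.59), while Ifitm2 was nearly flat (0.03). Among 12799 other genes above the dim limit on at least 2 arrays, the profiles nearest to Ifitm1 were those of Gkap1, Mterf2, Hbp1 and Sec14l1, at 0.01 to 0.02 log2 units. Hbp1, an HMG-box repressor known to restrain cell cycle entry, had 10.65 and 10.54 in Hi, against 11.14 and 11.20 in Lo. Nearest to Ifitm3 were Tmem209, Copg1, Glg1 and Rnf169, and nearest to Ifitm2 were Car3, Uqcrb, Speer4f1 and Rpl41. These genes were picked for likeness over 4 arrays, and the names describe that likeness only.

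For Ifitm6 the nearest profiles were those of Hectd2, Gm38604, Ngp and Camp, at 0.01 to 0.07 log2 units. Ngp and Camp code for proteins of neutrophil granules. Ngp had 11.32 and 10.55 in Hi, against 11.53 and 10.18 in Lo, and Camp had 12.21 and 11.52 in Hi, against 12.44 and 11.20 in Lo. Both were high on replicate 1 and low on replicate 2 of each group, as Ifitm6 was. That shared order follows from the choice, since Ngp and Camp were picked for profiles near that of Ifitm6. Hectd2, the nearest profile, had 8.13 and 7.46 in Hi, against 8.45 and 7.02 in Lo. Of the 6 measured granulocyte and monocyte markers, 5 were higher on replicate 1 than on replicate 2 in both groups, where 23.3% of all genes were. The exception was Cd14, with 5.55 and 5.12 in Hi, against 5.10 and 5.84 in Lo, and Csf1r was nearly level in Lo, at 9.93 and 9.86. The summed intensity of the 6, most of it from S100a8 and S100a9, came to 21889 and 15937 in Hi, against 23456 and 16811 in Lo. The alarmin gene S100a8 had 13.03 and 12.52 in Hi, against 13.11 and 12.60 in Lo, and its partner S100a9 had 13.45 and 13.04 in Hi, against 13.64 and 13.17 in Lo. The part of these cells' RNA in the Ifitm6 signal was not tested, and in bulk samples fewer cells of a type and less RNA per cell cannot be told apart.

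**Figure D3:**
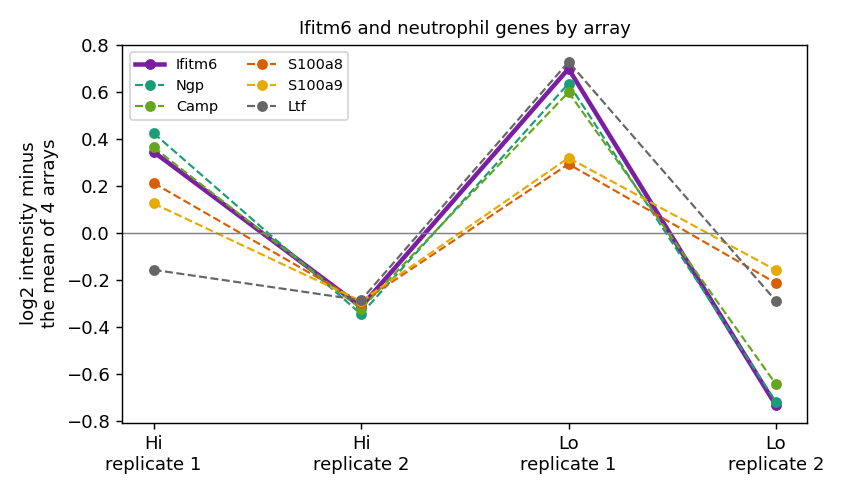
Log2 intensity minus the mean of the 4 arrays (vertical axis) for Ifitm6 and 5 neutrophil genes on each array (horizontal axis). Ifitm6, Ngp and Camp run together on all 4 arrays, high on replicate 1 and low on replicate 2 of both groups. Ngp and Camp were picked for profiles near that of Ifitm6, so this likeness follows from the choice. S100a8, S100a9 and Ltf, chosen from the marker list after their values were seen, are high on Lo replicate 1 as well.

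Interferon-stimulated genes, the wider set to which the Ifitm genes belong, had lower values in Hi at many members. Of 47 measured, 15 had an unadjusted p under 0.05 with the lower value in Hi (31.9%, against 11% of all genes) and 0 the other way (9.25% of all genes). Both Hi arrays lay below both Lo arrays for 26 of them (55.3%, against 25.4% of all genes) and above for 2 (4.26%, against 30% of all genes). The median difference was -0.34, against 0.03 over all 18193 genes with 1 probe set each, and 0 of 47 passed an adjusted p of 0.05. The list was chosen with results of these data known and carries no test of its own.

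The members of that list with the smallest p included sensors, antiviral GTPases and binding proteins. Ddx58, which codes for the RNA sensor RIG-I, had 9.15 and 9.08 in Hi, against 10.02 and 10.02 in Lo, a difference of -0.91 ± 0.13 (SE). Mx2, an antiviral dynamin-like GTPase, had 4.71 and 5.32 in Hi, against 6.71 and 7.08 in Lo, and its lower Hi array was under the dim limit. Ifit1, which binds foreign RNA, had 6.80 and 8.34 in Hi, against 9.83 and 10.45 in Lo. Ifit1 thus spread by more than 1.5 log2 units between the Hi arrays alone. The nuclear body gene Sp100 had a difference of -0.61 ± 0.13 and the guanylate-binding GTPase gene Gbp2 of -1.07 ± 0.23. Parp14, Samhd1 and Rtp4 stood at -0.86 ± 0.22, -0.67 ± 0.17 and -0.81 ± 0.22. By limma their adjusted p ran from 0.102 for Ddx58 to 0.191 for Rtp4.

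The interferon list also varied between the arrays of a group. For 31 of the 47 genes replicate 2 was higher than replicate 1 in both groups (66%, against 29.8% of all genes). Replicate 1 minus replicate 2 had a median of -0.22 in Hi and -0.38 in Lo. For Ifitm1 that step came to 0.09 in Hi and 0.0064 in Lo, and for Ifitm3 to -0.0035 in Hi and -0.14 in Lo. The steps of Ifitm1 were thus opposite in sign to the list medians, though small. Ifitm6 went the other way from the list too, by 0.66 in Hi and 1.43 in Lo. Dropping Lo replicate 1 put the median difference of the list at -0.58, and dropping Hi replicate 1 put it at -0.25.

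**Figure D4:**
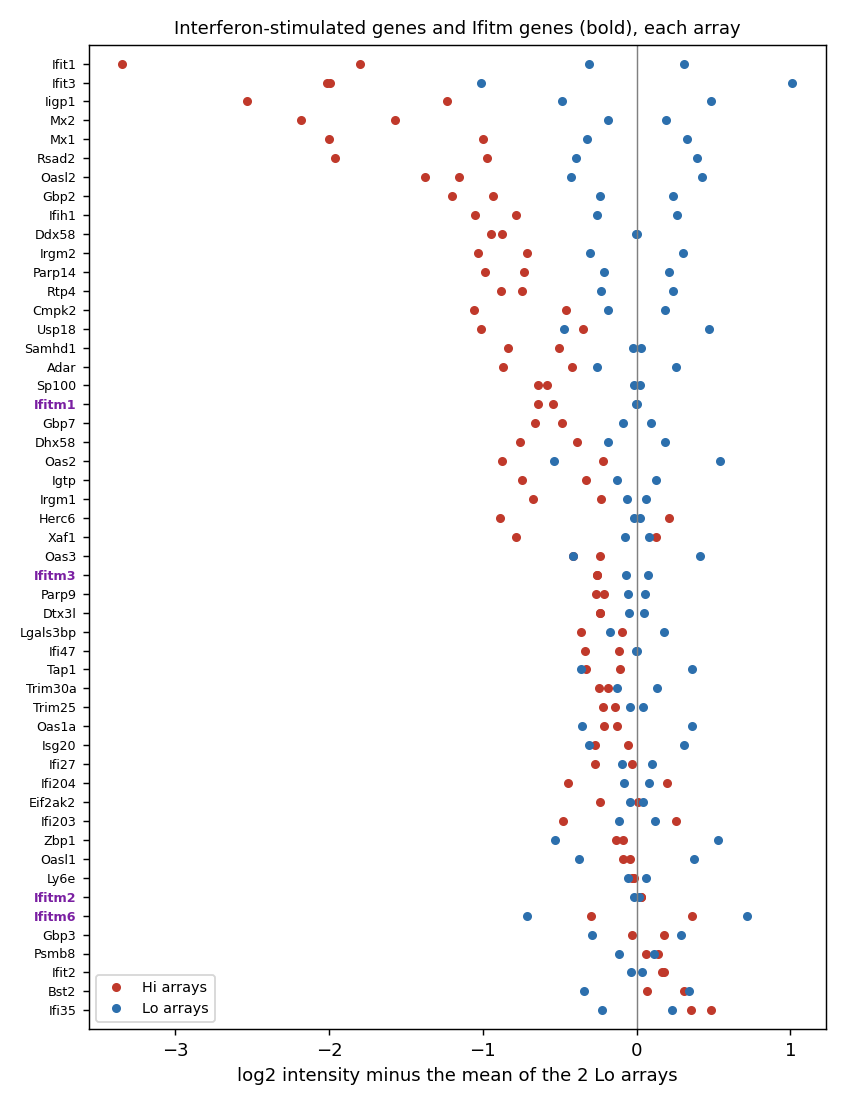
Log2 intensity minus the mean of the 2 Lo arrays (horizontal axis) for 47 interferon-stimulated genes and the 4 Ifitm genes (bold), with Hi arrays in red and Lo arrays in blue. The lowest Hi point is that of Ifit1, Ifitm1 lies among the genes with differences near -0.6, and Ifitm2 sits close to 0.

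Among interferon receptors and their signalling genes, 6 of 21 had an unadjusted p under 0.05 with the lower value in Hi (28.6%, against 11% of all genes) and 1 with the higher (4.76%, against 9.25%), and 0 passed an adjusted p of 0.05. The median difference was -0.45, or -0.28 when a gene's probe sets were averaged. Of the transcription factor genes that carry the type I interferon signal, Stat2 had 7.95 and 7.92 in Hi, against 8.35 and 8.64 in Lo, and its partner Irf9 had 10.10 and 10.28 in Hi, against 10.65 and 11.06 in Lo. The kinase gene Jak2 had a difference of -0.82 ± 0.19 (SE), Stat3 of -0.69 ± 0.14 and the interferon gamma receptor chain gene Ifngr2 of -0.95 ± 0.33. For 12 of the 21 genes both Hi arrays lay below both Lo arrays (57.1%, against 25.4% of all genes). For 3 of the 21 both lay above (14.3%, against 30% of all genes), which were Irf8, Ifngr1 and Socs1. Irf8, a factor of monocyte and dendritic lineages, had 10.87 and 11.15 in Hi, against 10.58 and 10.17 in Lo, a difference of 0.63 ± 0.22. Ifngr1, the other interferon gamma receptor chain gene, had 10.56 and 10.43 in Hi, against 10.10 and 9.43 in Lo, a difference of 0.73 ± 0.28. Socs1, an inhibitor of Janus kinases, stood at 0.19 ± 0.16. The limma adjusted p of Stat3 was 0.139 and that of Ifngr1 was 0.295.

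Other antiviral restriction factors did not share one direction. Of 12 measured, 4 had an unadjusted p under 0.05 with the lower value in Hi (33.3%, against 11% of all genes) and 0 the other way (9.25% of all genes), and the median difference was -0.02. The 4 were Mx2, Samhd1, Mx1 and Rsad2, which are on the interferon list too. Mx1 had 6.27 and 7.27 in Hi, against 7.95 and 8.60 in Lo, and Rsad2, which codes for viperin, had 8.48 and 9.47 in Hi, against 10.05 and 10.84 in Lo.

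Of the 8 other measured genes with the CD225 domain that defines the family, 4 were dim on all arrays, as were 4918 of all 18193 genes. The dim limit, 4.74 to 4.87, is the highest value on an array among 27 probe sets that target Bacillus subtilis. Ifitm5, known from bone-forming cells, stood at 3.95 and 3.86 in Hi, against 4.17 and 3.49 in Lo, and Ifitm7 at 3.91 and 4.10 in Hi, against 3.67 and 3.60 in Lo. Both were under the limit on all 4 arrays, as were Trarg1 and Syndig1. Ifitm10 was above it, at 5.97 and 5.84 in Hi, against 5.75 and 5.58 in Lo, with a difference of 0.24 ± 0.15 (SE) and a limma adjusted p of 0.48. The other relatives above it on at least 2 arrays were Tmem91 at 0.80 ± 0.68, Prrt1 at 0.35 ± 0.38 and Syndig1l at -0.03 ± 0.14. Of 8 measured relatives, 0 had an unadjusted p under 0.05, where 11% of all genes did with the lower value in Hi and 9.25% with the higher. Their median difference was 0.25, or -0.03 without Lo replicate 2.

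Genes whose proteins bind or modify Ifitm proteins gave no difference that passed an adjusted p of 0.05 in limma, where 0 of all 45037 probe sets did. Of 8 measured, 0 had an unadjusted p under 0.05, and the median difference was -0.02. Of all genes, 11% had such a p with the lower value in Hi and 9.25% with the higher, so 0 among 8 is not far from those shares. Cd81, a tetraspanin that stands in a complex with IFITM1 on human B cells, had 12.59 and 12.56 in Hi, against 12.57 and 12.45 in Lo. Nedd4, a ubiquitin ligase that marks IFITM3 for degradation, stood at -0.10 ± 0.17 (SE). Zdhhc20, an enzyme that adds palmitate to IFITM3, stood at -0.15 ± 0.14, the methyltransferase gene Setd7 at 0.34 ± 0.34 and the protease gene Zmpste24 at 0.17 ± 0.19. The complement receptor gene Cr2 stood at -0.67 ± 0.50.

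On chromosome 7 the order of measured genes is Cox8b, Nlrp6, Pgghg, Ifitm5, Ifitm2, Ifitm1, Ifitm3, Ifitm6, B4galnt4, Pkp3, Sigirr and Ano9 in the GRCm38.p6 gene table. Of the 8 measured neighbours that are not members, 1 had an unadjusted p under 0.05 with the lower value in Hi (12.5%, a share near the 11% of all genes). It was Sigirr, which codes for an inhibitory receptor of interleukin-1 and Toll-like receptor signalling. Sigirr had 10.24 and 10.31 in Hi, against 10.83 and 11.40 in Lo, a difference of -0.84 ± 0.24 (SE) and a limma adjusted p of 0.212. The plakophilin gene Pkp3 stood at -0.43 ± 0.22 and Pgghg at -0.31 ± 0.22, and Nlrp6 was under the dim limit on all 4 arrays. Ifitm1 and Ifitm2, which lie side by side in this order, had differences of -0.59 and 0.03.

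**Figure D5:**
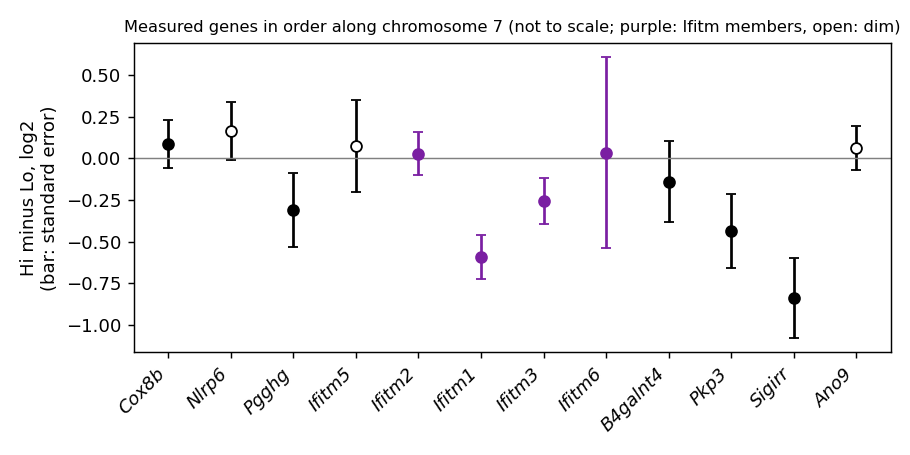
Difference of Hi minus Lo in log2 intensity (vertical axis) for 12 measured genes in their order along chromosome 7 (horizontal axis, not to scale), with bars for the standard error, Ifitm members in purple and open points for genes too dim to measure on any array. Sigirr, at -0.84, and Ifitm1, at -0.59, lie lowest.

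Markers of long-term stem cells are given to set beside Ifitm1. Of 19 measured, 16 had an unadjusted p under 0.05 with the lower value in Hi (84.2%, against 11% of all genes) and 0 the other way (9.25% of all genes), with a median difference of -1.73. Of the 19, 0 passed an adjusted p of 0.05 in limma over all probe sets, and 8 did, all lower in Hi, in each of the refits over genes. Of all 18193 genes, those refits called 276 (gene means) and 214 (brightest probe sets) lower in Hi. Procr, the endothelial protein C receptor gene, had 9.62 and 9.91 in Hi, against 11.71 and 11.81 in Lo, and the angiopoietin receptor gene Tek had 8.64 and 8.71 in Hi, against 10.33 and 10.47 in Lo. Sult1a1 had 6.62 and 6.45 in Hi, against 10.79 and 10.82 in Lo, and Abcb1a had 4.84 and 4.64 in Hi, where it was under the dim limit, against 8.23 and 8.64 in Lo. The part of the stem cell share of each sort in the Ifitm1 difference was not tested.

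Across all probe sets the arrays of a group correlated at r = 0.99 for Hi and 0.983 for Lo, and Hi with Lo arrays at 0.972 to 0.976. Myc itself had 12.41 and 12.41 in Hi, against 11.70 and 10.64 in Lo. Of the LSK markers measured, Kit, Cd34, Flt3 and Ptprc were between 11.10 and 12.92 on all 4 arrays. Ptprc, which codes for the leukocyte antigen CD45, had 11.10 and 11.29 in Hi, against 11.71 and 11.83 in Lo, a difference of -0.58 ± 0.15 (SE) with a limma adjusted p of 0.189. It was the 1 of these 4 markers with an unadjusted p under 0.05. The Gapdh signal at the 3′ end exceeded that at the 5′ end, a measure of RNA quality, by 0.63 and 0.65 log2 units in Hi, against 0.74 and 0.78 in Lo. For Actb that excess was 0.60 and 0.55 in Hi, against 0.84 and 0.57 in Lo, and the groups overlapped. The part of RNA quality in the Ifitm differences was not tested. The marker counts that follow stand beside 11% of all genes with the lower value in Hi and 9.25% with the higher at an unadjusted p under 0.05. Of 6 endothelial markers, 3 had an unadjusted p under 0.05 with the lower value in Hi. The summed intensity of the 6 was 1737 and 1610 in Hi, against 2833 and 2571 in Lo. The 3 were Cldn5, Emcn and Vwf, and Vwf is on the long-term stem cell list too. Kdr stood at -0.65 ± 0.34 (SE) and Pecam1 at 0.47 ± 0.29. The defining junction gene Cdh5, also among the 6, was under the dim limit on all 4 arrays. Of 6 T and NK cell markers, 2 had the lower value in Hi at that p, with a summed intensity of 670 and 500 in Hi, against 630 and 688 in Lo. Of the other marker lists, 0 of 4 B cell markers and 0 of 4 stromal markers had an unadjusted p under 0.05, as had 1 of 4 mast cell markers (lower in Hi) and 1 of 3 red cell precursor markers (higher in Hi).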

How the data were processed

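Total RNA of sorted LSK cells was amplified with a NuGEN Ovation kit and hybridised to Affymetrix mouse arrays, per the labels' protocols. The deposited table holds a linear intensity for each probe set on each array. The submitters' processing notes name RMA, which levels the distributions across arrays and so hides shifts in overall RNA content; for its version and background step the sources used here give nothing. Intensities were log2-transformed with no offset. The 64 controls among 45101 probe sets were dropped. The platform annotation gave 34945 probe sets 1 gene symbol, 932 several and 9160 none. Of the first, 34741 matched the reference gene table and 0 symbols changed. A gene stands on its brightest probe set. Hi minus Lo was fitted over 4 arrays with limma 3.58.1 in R 4.3.3 (lmFit and eBayes, two-sided, 2 residual degrees of freedom), with Benjamini-Hochberg adjustment over 45037 probe sets. With 2 arrays per group, the number of arrays limits the precision. The steps were tested on simulated data.

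The members, lists and tests were chosen with earlier results of these data known. Named genes were the members, the CD225 relatives, the 4 to 8 genes of each list with the smallest p, the 4 nearest profiles per member and the chromosomal neighbours; others named were chosen after their values were seen. Genes without a probe set of their own were not analysed here. Promoter windows came from RefSeq, and 34 of the 47 measured interferon-stimulated genes had one. Alternatives were other normalizations, an offset, a dim filter, other variance models, gene summaries, a replicate block and leaving out arrays.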

Additional observations from a re-analysis of the deposited data

How the results depend on the processing

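Over 14 alternatives Ifitm1 kept its direction at -0.66 to -0.50 (limma adjusted p 0.0704 to 0.519) and Ifitm3 at -0.33 to -0.16 (adjusted p 0.165 to 0.778), and 0 of the 4 members passed 0.05 under any of them. Ifitm2 ran from -0.026 with cyclic loess to 0.12 after a shift to 1 median. Leaving out single arrays, Ifitm6 ran from -0.68 to 0.75, and its sign turned without Hi replicate 1 (-0.30) and without Lo replicate 2 (-0.68). Calls over all probe sets numbered 0, against 1 in the ordinary linear model, 528 with each gene's probe sets averaged and 404 with 1 probe set per gene refitted over genes; in these refits fewer features were tested. In those 2 refits the adjusted p of Ifitm1 was 0.0885 and 0.104. With that averaging the median was -0.21 for antiviral restriction factors, -0.28 for interferon receptors and signalling and -1.56 for long-term stem cell genes. With dim probe sets left out it was -0.31 for the genomic neighbours, over 5 genes. Leaving out single arrays, the medians ran from -0.20 to 0.033 for restriction factors, -0.20 to -0.023 for neighbours, -0.027 to 0.36 for CD225 relatives, -0.57 to -0.28 for receptors and signalling, -0.58 to -0.25 for interferon-stimulated genes and -1.89 to -1.58 for long-term stem cell genes, and -0.14 to 0.079 for Ifitm partners; the lone array was assumed to vary like the other group. The replicate numbers are not said to mark shared animals or days, and same-numbered deviations correlated at 0.0719 over probe sets. With a replicate block the differences of Ifitm1 (-0.59), Ifitm2 (0.03), Ifitm3 (-0.26) and Ifitm6 (0.03) had adjusted p-values of 0.251, 0.943, 0.485 and 0.966 and 0 probe sets were called. The causes of these shifts were not tested.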

Other observations

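Among the CD225 relatives, replicate 1 was higher than replicate 2 in both groups for 7 of 8 genes (87.5%, against 23.3% of all genes), and the exception was Ifitm7. This is the order seen for Ifitm6, with a smaller median step. That median was 0.11 log2 units in Hi and 0.19 in Lo, against steps of 0.66 and 1.43 for Ifitm6. Among long-term stem cell genes 10 of 19 had the same order (52.6%). Tmem91 had 7.23 and 6.49 in Hi, against 6.93 and 5.19 in Lo. In 4 of the 8 genes the signal was under the dim limit on all 4 arrays.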
